A study of Homo sapiens with 17 samples.

Results

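The genes described here encode subunits of the mitochondrial respiratory chain (complexes I to IV) and of ATP synthase (complex V). They were chosen by symbol alone: symbols starting with NDUFA, NDUFB, NDUFC, NDUFS or NDUFV for complex I, SDHA to SDHD for complex II, UQCR or CYC1 for complex III, COX4 to COX8 for complex IV and ATP5 for complex V. The rule matched 80 of the 9699 transcripts in the table, 1 per gene. Of these, 74 name a subunit, with 34 in complex I, 4 in complex II, 9 in complex III, 12 in complex IV and 15 in complex V. The other 6 share the letters without being subunits: NDUFAF1, NDUFAF2, NDUFAF3 and NDUFAF4 are complex I assembly factors, and COX4NB and ATP5SL carry historical names. These 6 are kept apart from the medians of the complexes.

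The cells were BJ human foreskin fibroblasts, a line immortalised with telomerase (hTERT). The series holds 9 RNA-Seq and 8 Ribo-Seq libraries. Ribo-Seq sequences the mRNA fragments that ribosomes protect, so its level reflects how much of a coding sequence is being translated. Proliferating cells were grown in normal medium, and quiescence was brought about by removing serum. Pre-senescence and senescence were 5 and 14 days of tamoxifen-inducible RASG12V, an oncogenic form of the RAS GTPase. The transformed cells expressed retroviral RASG12V together with SV40 small T and stable knockdowns, that of p16INK4A among them, so they differed from the senescent cells in several alterations. Their proliferating control carried hTERT without the knockdowns or small T. Every library came from this single cell line.

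The table gives 1 FPKM value per gene in 6 RNA-Seq and 6 Ribo-Seq columns. Proliferation appears in a column from each of 2 sequencing runs, called run 1 and run 2 below, and each condition was set against the control of its own run. Quiescence and pre-senescence were therefore compared with run 1, senescence and transformation with run 2. The pre-senescent Ribo-Seq column and all columns of senescence, transformation and run 2 proliferation are single libraries. The other columns pool replicate libraries. No value here therefore has a replicate error, and no test could be made. A gene is said to have risen or fallen when a value changed by at least 1.5-fold in either direction, and the difference between the 2 proliferating columns is the only measure of spread between repeats. Quiescence and pre-senescence share a control, as do senescence and transformation, so likeness within those pairs carries no weight. The table itself carries no read counts. The study lists read totals per library, but gene counts were not rebuilt from them, so no counting error is given for single values. FPKM is relative within a library, and in bulk samples fewer cells and less RNA per cell cannot be told apart.

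The labels of 2 Ribo-Seq libraries disagreed. Those titled as senescent and as proliferating of run 2 carry each other's condition in another field. The titles were followed. MKI67, a marker of dividing cells, had a Ribo-Seq FPKM of 43.0 in the library titled proliferating and 1 in that titled senescent, beside RNA FPKM values of 44.0 and 1. Over all genes, the Ribo-Seq column titled senescent had a rank correlation of 0.881 with senescent RNA and 0.755 with run 2 proliferating RNA. That titled proliferating of run 2 had 0.773 and 0.852 with the same RNA columns. Both MKI67 and the correlations go with the titles. HRAS RNA did not follow the RASG12V labels throughout. It was 1284 FPKM in run 2 proliferation, 2087 in senescence and 312 in transformed cells. In run 1 proliferation and pre-senescence it was 2415 and 2102 FPKM. The study does not say whether the proliferating cells carried the tamoxifen-inducible RASG12V, so HRAS RNA cannot serve as a check of the labels. All 8 fibroblast markers examined were listed, among them COL1A1 and VIM, against 0 of 3 endothelial, 1 of 3 blood and 3 of 5 epithelial markers, the last being keratins 8, 18 and 19.

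The respiratory chain passes electrons from NADH (complex I) or succinate (complex II) through ubiquinol and complex III to cytochrome c and on to oxygen at complex IV. Complexes I, III and IV pump protons, and ATP synthase uses the gradient to make ATP. Most subunits are encoded in the nucleus, translated in the cytosol and imported. Complexes I, III, IV and V also hold subunits made inside the mitochondrion. The 13 mitochondrially encoded subunits were not analysed here, since the table holds none of them. Senescent cells are known for enlarged and often poorly coupled mitochondria, and serum withdrawal lowers translation of mRNAs with a 5′ terminal oligopyrimidine (TOP) tract through mTOR.

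Start sites are shown because TOP mRNAs, above all those of cytosolic ribosomal proteins, are those whose translation follows mTOR. RefSeq promoter entries of GRCh38.p14, running from 250 bases before to 50 bases after the annotated start, were matched for 59 of the 74 subunits. A TOP-like start was defined as a C at the start followed by 4 bases that are each C or T. It was found in 9 of these 59 (15.3%) and in 42 of 62 cytosolic ribosomal protein genes (67.7%). The share was 7.69% in mitochondrial ribosomal protein genes. It was 5.82% in the matched genes of the table (467 of 8027) and 4.04% in promoters of any gene (1104 of 27303). Each line below gives a 25-base window 5′ to 3′ on the gene's strand, with the pyrimidine run that begins at the annotated start in capitals and the coordinates after it.
COX4I1: ttgctCTCTTCCggtcgcgggacac (chr16:85799690-85799714, plus strand)
COX7C: tctttCTTTTCagtccttgcgcacc (chr5:86617936-86617960, plus strand)
COX7A2L: ggggtCCTTCTCTggggcggtcgcg (chr2:42361198-42361222, minus strand)
UQCRH: aagtcCTTCTTgatcctgaactggg (chr1:46303693-46303717, plus strand)
NDUFC1: ccccaCCTCCCgagaagagtgacgg (chr4:139302532-139302556, minus strand)
ATP5E: ctgatCTTCCTgcggctgaaccgcc (chr20:59032316-59032340, minus strand)
ATP5G2: ctccgCCCCTCTCTgtcttctctgc (chr12:53676064-53676088, minus strand)
ATP5L: cgggtCCTTCCggcgggtgacattc (chr11:118401601-118401625, plus strand)
ATP5O: tttctCTCTTCCCactcgggtttga (chr21:33915785-33915809, minus strand)
COX6A1, picked because its translation efficiency fell most in senescence, is shown as 1 of the 50 matched subunits without such a start. It starts at an A that no pyrimidine run follows. Whether the start bears on its fall was not tested.
COX6A1: gcggcagtccagatcaaaaatggcg (chr12:120438108-120438132, plus strand)

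A second set of windows shows the binding motif of nuclear respiratory factor 1 (NRF1), a transcription factor long tied to respiratory genes. The motif searched, GCGCA and GCGC with any 1 base between them, on either strand, was in 14 of the 59 subunit promoters (23.7%), against 12.9% of the 8027 promoters matched to genes of the table and 6.29% of all promoters. The ETS-family motif CCGGAAG was in 18 (30.5%, against 21.4% and 10.7%) and the YY1 motif AAGATGGCG in 8 (13.6%, against 4.55% and 1.85%). Mitochondrial ribosomal protein promoters held the NRF1, ETS and YY1 motifs in 9.23%, 41.5% and 20%, and cytosolic ones in 9.68%, 32.3% and 8.06%. The ETS and YY1 motifs were thus not particular to the respiratory subunits. The windows below hold the NRF1 motif, in capitals, for a subunit whose RNA rose in senescence (NDUFA3) and for 2 complex II subunits whose RNA did not (SDHA and SDHD).
NDUFA3: gtgctccaggGCGCACGCGCagccctggga (chr19:54102772-54102801, plus strand)
SDHA: ccggcgtggtGCGCAGGCGCggtatccccc (chr5:218242-218271, plus strand)
SDHD: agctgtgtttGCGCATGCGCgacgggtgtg (chr11:112086753-112086782, plus strand)
The median senescent RNA change was 0.82 on the log2 scale in the 14 subunits with the NRF1 motif and 0.82 in the 45 without it. A match describes the letters and not binding.

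In proliferating cells of run 1 the subunits were abundant and densely translated. Their median was 56.0 FPKM in RNA-Seq and 168 in Ribo-Seq, against 13.6 and 16.3 over all genes. Translation efficiency (TE), the log2 ratio of Ribo-Seq to RNA-Seq FPKM, had a median of 1.29 over the subunits and 0.41 over all genes. Small subunits led. ATP5E, the epsilon subunit of ATP synthase, had a TE of 4.04, COX7C, a small subunit of complex IV, 3.73, and NDUFB2, an accessory subunit of complex I, 3.47. The lowest in complex V was ATP5G2, a gene for the ring-forming c subunit, at 0.06. Complex I ran down to NDUFB4 at 0.35, complex III from UQCR11 at 2.60 to UQCRFS1, the Rieske iron-sulfur protein, at 0.33, and complex IV down to COX8A at 1.24. Complex II spanned only SDHC at 0.93 to SDHA, the flavoprotein, at 0.44. By median TE the order in run 1 was complex IV (1.65), complex I, complex III (0.96), complex II (0.92) and complex V (0.89), with little between the last 3. Within complex I the 7 core subunits that carry the redox centres had a median TE of 0.95 and the 27 others 1.58. RNA-Seq FPKM was counted over the whole transcript and Ribo-Seq FPKM over the coding sequence, so a TE compares unlike lengths between genes.

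**Figure D1:**
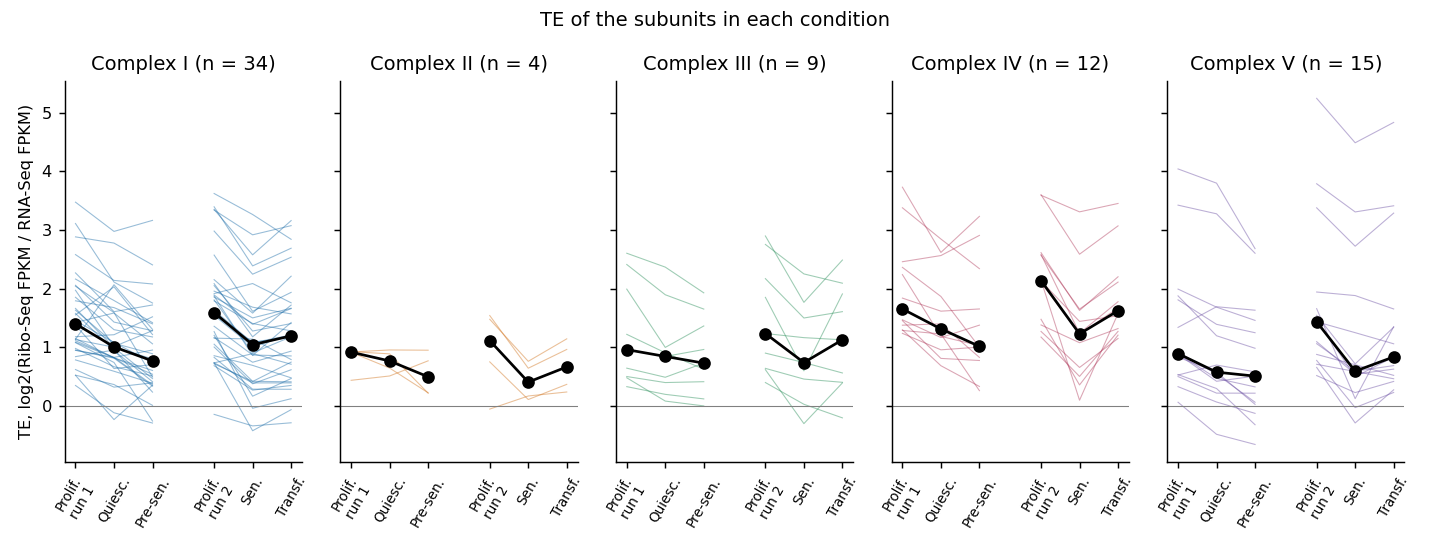
TE (log2 of Ribo-Seq over RNA-Seq FPKM) of each of the 74 subunits, 1 thin line per gene, in the 3 columns of run 1 and the 3 of run 2, with the median of each complex as black points. In all 5 complexes the median was highest in the proliferating column of its run.

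The proliferating columns differed between runs by amounts that matter for every later value. From run 1 to run 2 the median subunit changed by −0.17 (log2) in RNA, 0.10 in Ribo-Seq and 0.18 in TE. In RNA 3 subunits were at least 1.5-fold higher in run 2 and 9 lower (all genes 11.4% and 14.4%), in Ribo-Seq 14 and 9 (20.0% and 20.7%), and in TE 16 and 2 (14.9% and 11.6%). TE was highest of the 6 columns in run 2 proliferation for 47 of the 74 subunits and in run 1 proliferation for 19. COX6A1 stood out, with an RNA FPKM of 14.0 in run 1 and 41.4 in run 2. COX7A1 was also higher in run 2, at 5.16 and 11.5, while ATP5L was lower, at 70.5 and 29.5. Fibroblasts of the 2 runs also differed in other genes, for instance in COL1A1 RNA, with 371 and 1328 FPKM, and the part of culture and of library in this was not tested.

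Senescence brought the widest change at the RNA level. Of the 74 subunits 57 rose at least 1.5-fold and 0 fell, against 18.9% and 20.5% of the 9080 genes measured, and the median subunit gained 0.82 on the log2 scale against 0.01 over all genes. The change exceeded that gene's own difference between the proliferating columns in 54 subunits, a condition met by 16.8% of all genes. RNA was highest of all 6 columns in senescence for 56 of the 74. With no replicate of the senescent column, this is a comparison of single libraries. The plot by complex and condition shows the shift of the whole group.

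**Figure D2:**
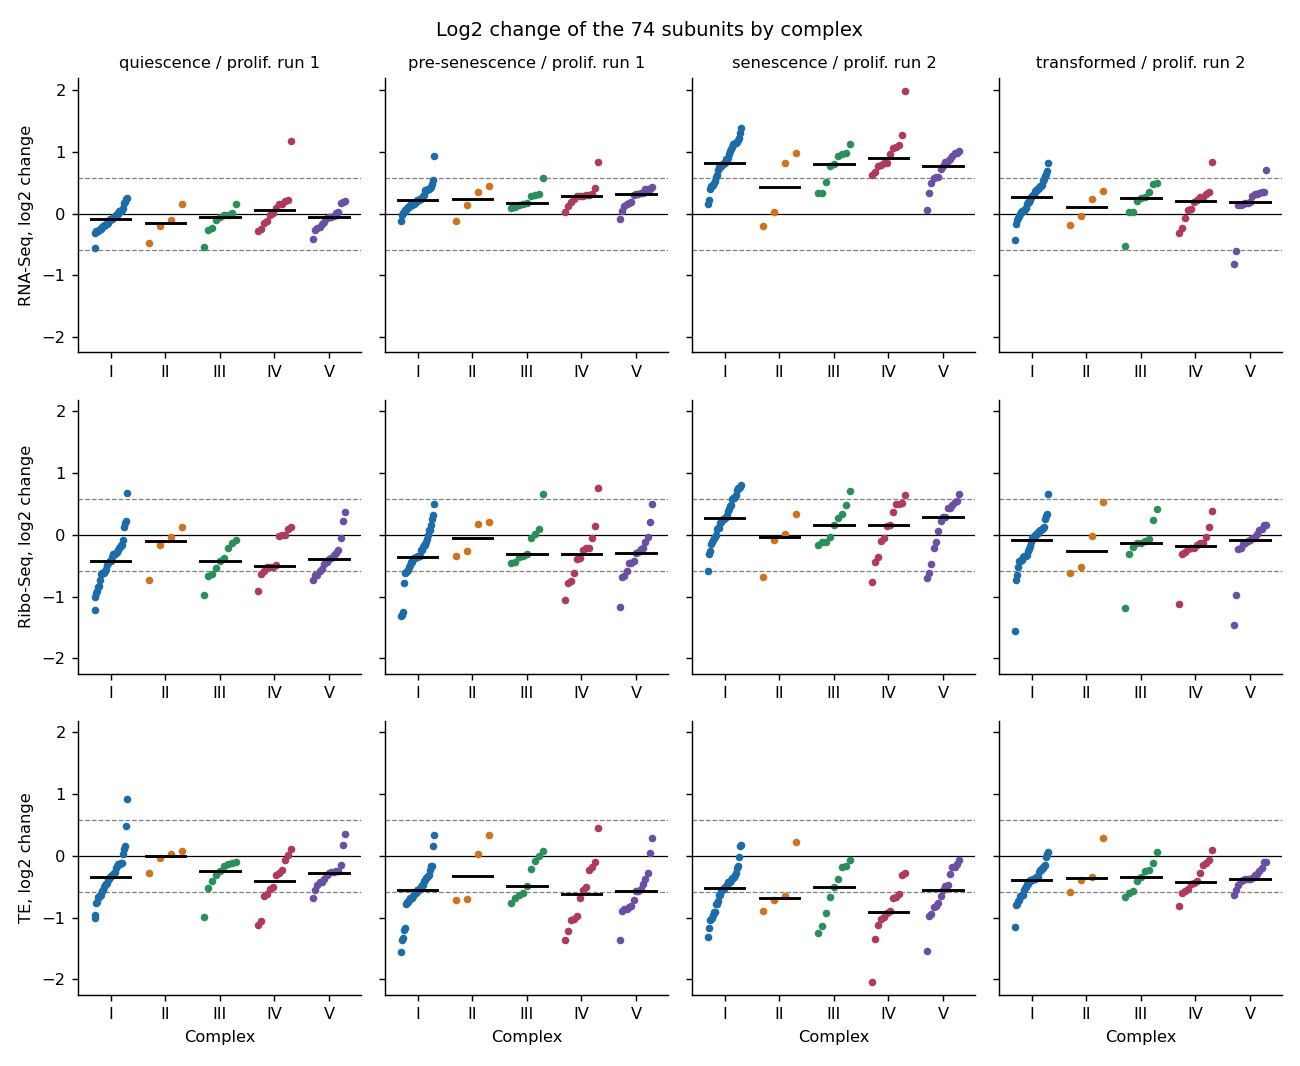
Log2 change of each of the 74 subunits (points, sorted within a complex) in RNA-Seq, Ribo-Seq and TE for the 4 conditions against proliferation of the same run, with the median of each complex as a bar and 1.5-fold as dashed lines. In senescence 73 of 74 subunits lie above 0 for RNA and 71 of 74 below 0 for TE.

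All 5 complexes took part to differing degrees. RNA rose for 26 of 34 subunits in complex I, 2 of 4 in complex II, 6 of 9 in complex III, 12 of 12 in complex IV and 11 of 15 in complex V. In complex I, the NADH dehydrogenase, the accessory subunits moved further than the redox core: 23 of 27 rose with a median of 0.88, against 3 of 7 core subunits with a median of 0.54. NDUFA3 had RNA FPKM values of 22.5, 23.1 and 29.7 in proliferation, quiescence and pre-senescence of run 1, and of 18.6, 48.4 and 24.5 in proliferation, senescence and transformation of run 2. Its senescent value was the only one above 30 and its rise of 1.38 was the largest of the complex. NDUFAB1, the mitochondrial acyl carrier protein, gave 48.6, 41.9 and 71.0 in the same order in run 1 and 45.8, 113 and 69.7 in run 2, a rise of 1.30 with a smaller one already in the transformed column. NDUFS1, the large iron-sulfur subunit of the core, stayed between 42.1 and 52.0 FPKM in all 6 columns and changed by 0.22. NDUFV1, the NADH-binding core subunit, changed by 0.45.

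Complex II, succinate dehydrogenase, was split. SDHB, its iron-sulfur subunit, had RNA levels of 53.5 FPKM in run 2 proliferation and 106 in senescence, a rise of 0.98, though the run 1 control was at 95.5. SDHC, a membrane anchor, rose by 0.82 from 71.7 to 126. SDHA was the only subunit of the 74 below its control, at 62.2 and 53.9 (−0.21), and SDHD was level at 44.2 and 45.2 (0.03). Of the 4, SDHB alone moved across 1.5-fold with the choice of control.

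Complex III transfers electrons from ubiquinol to cytochrome c. Its hinge protein UQCRH had the largest rise, from 157 to 346 FPKM (1.14), and its run 1 columns of 168, 162 and 251 lay below that. UQCRFS1 and CYC1 (cytochrome c1), both catalytic, changed by 0.33 each. CYC1 was at 58.9 and 74.2 in run 2 but at 112 in run 1 proliferation and 120 in pre-senescence.

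Complex IV, cytochrome c oxidase, rose in every listed subunit, with a range from 0.63 for COX7A2 to 1.99 for COX7A1. COX7A1 is the isoform best known from heart and skeletal muscle. Its RNA was 5.16, 11.7 and 9.23 FPKM in the run 1 columns and 11.5, 45.4 and 9.22 in those of run 2, so that senescence stood 3.97-fold above its control and no other column passed 12. COX7A2, the widespread isoform, was higher in every column, from 63.4 to 111 FPKM, and rose by 0.63, while COX7A2L, a relative that joins supercomplexes, rose by 1.12 to 54.2 FPKM. COX4I1, the widespread isoform of an early assembled subunit, rose by 0.82 from 233 to 410 FPKM. COX6A1 went from 41.4 to 100 (1.28), but a gain of 1.57 already separated the proliferating columns.

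Complex V rose in 11 of 15 subunits. The catalytic pair ATP5A1 and ATP5B, alpha and beta, gained 0.60 and 0.72, from 233 to 353 and from 365 to 602 FPKM. Some other subunits reached further, among them ATP5J2 at 1.02, ATP5E at 0.98 and ATP5O at 0.98, while ATP5F1 gained 0.60. The rotor subunit ATP5C1, at 120 and 124 FPKM, did not follow (0.05). The 3 genes for the c ring encode the same mature protein and differed: ATP5G3 rose by 0.77, ATP5G1 was just short of 1.5-fold at 0.58, and ATP5G2 changed by 0.33.

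**Figure D3:**
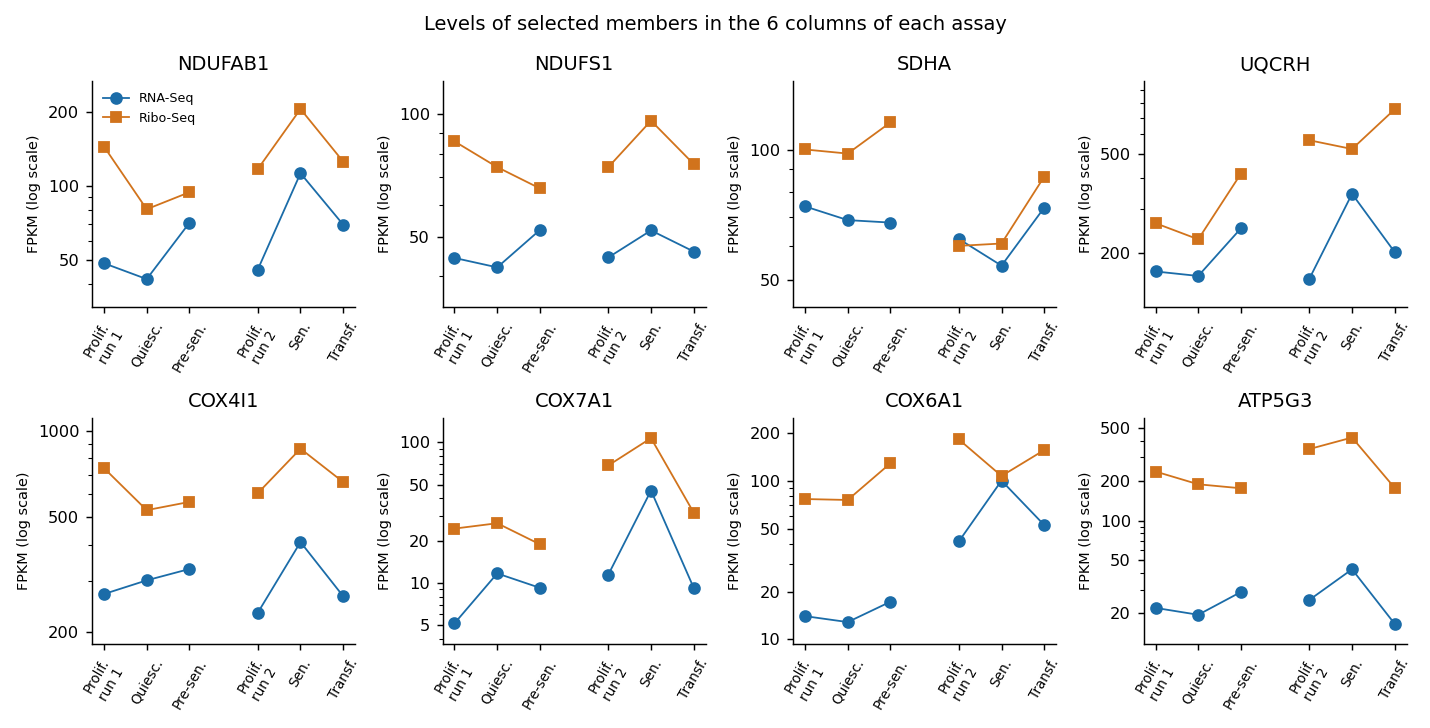
RNA-Seq and Ribo-Seq FPKM (log scale, 1 value per column) of 8 members, with lines joining columns of the same run. COX7A1 RNA in senescence, at 45.4 FPKM, stands above its other 5 columns, while SDHA RNA in senescence, at 53.9 FPKM, is its lowest.

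Ribosome occupancy followed the RNA rise only in part. In Ribo-Seq 12 subunits rose and 5 fell in senescence (all genes 21.1% and 27.5%), and the median was 0.25 against −0.09 over all genes. Of the 57 subunits with more RNA, 44 stayed within 1.5-fold in Ribo-Seq, 11 rose and 2 fell. NDUFAB1 had the largest Ribo-Seq rise of the subunits, from 117 to 206 FPKM (0.81), followed by NDUFA8, a complex I subunit of the intermembrane space, from 66.7 to 114 (0.77). COX6A1 fell by 0.77 from 183 to 107, ATP5I, a dimerisation subunit of ATP synthase, fell by 0.70 from 369 to 227, and SDHD fell by 0.68 from 123 to 76.6. For COX6A1 and ATP5I the run 1 proliferating levels were lower, 76.9 and 147, so their senescent values lay between the 2 controls. The 2 assays are set against each other in the scatter of senescent and transformed changes.

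**Figure D4:**
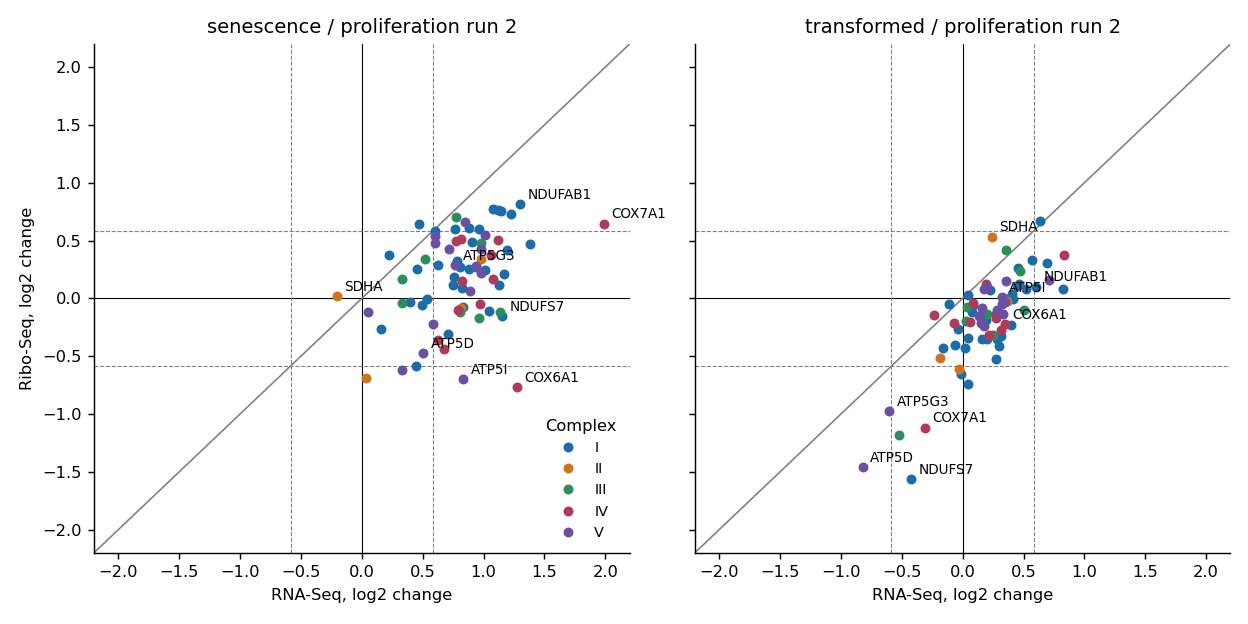
Ribo-Seq against RNA-Seq log2 change of the 74 subunits in senescence (left) and in transformed cells (right), both against run 2 proliferation. The grey diagonal marks equal change, dashed lines mark 1.5-fold, and 71 of 74 subunits lie below the diagonal in senescence.

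TE in senescence accordingly fell for 37 subunits and rose for 0 (all genes 17.5% and 13.2%), with a median of −0.59 against −0.04. Both an RNA rise and a TE fall were seen in 32 subunits and in 5.02% of all genes. Complex IV had the lowest median, −0.90, with 10 of 12 past 1.5-fold, then complex II (−0.68, 3 of 4), complex V (−0.55, 7 of 15), complex I (−0.52, 13 of 34) and complex III (−0.50, 4 of 9). COX6A1 had the largest fall, from a TE of 2.14 to 0.10. ATP5I followed with 1.66 and 0.13, COX7A1 with 2.58 and 1.24, and NDUFS7, a core iron-sulfur subunit, with 1.27 and −0.04. SDHA, NDUFA9 and NDUFS1 were the only subunits above 0, by 0.22, 0.17 and 0.16. The fall exceeded the gene's own difference between controls in 32 subunits (14.4% of all genes). Since RNA enters TE with a minus sign, an error in an RNA value moves RNA and TE in opposite directions. Run 2 proliferation also had the highest TE of most subunits: with the run 1 column as control 24 subunits fell and the median was −0.37, and against the transformed column of the same run 9 fell (all genes 10.7%) with a median of −0.19.

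Transformed cells, which also express RASG12V, gave a separate comparison in run 2 that leaves out the proliferating column. RNA of 39 subunits was at least 1.5-fold higher in senescent than in transformed cells and that of 0 lower, beside 18.4% of all genes higher and 25.1% lower, with a median of 0.62. In Ribo-Seq 20 subunits were higher and 2 lower (23.1% and 28.0% of all genes), with a median of 0.38. COX7A1 showed the widest gap in both, 2.30 in RNA and 1.76 in Ribo-Seq. NDUFS7 differed by 1.57 in RNA and ATP5G3 by 1.37, and UQCR11, a small complex III subunit, by 1.66 in Ribo-Seq. SDHA was lower in senescent cells by 0.45 in RNA and 0.51 in Ribo-Seq.

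Against proliferation, the transformed column showed small changes. RNA rose for 6 subunits and fell for 2 (all genes 12.5% and 10.6%), with a median of 0.23. COX6C, a complex IV subunit, gained 0.84 (36.6 to 65.3 FPKM), NDUFS6, a zinc-binding complex I subunit, 0.82 (49.4 to 87.3), and ATP5G1 0.71 (68.6 to 112). ATP5D, the delta subunit, lost 0.82 (45.7 to 25.8) and ATP5G3 lost 0.60 (25.2 to 16.6). Ribo-Seq rose for 1 subunit, NDUFA8 at 0.67, and fell for 8 (12.7% and 15.1%). The largest falls were those of NDUFS7, from 17.6 to 5.95 FPKM (−1.56), ATP5D, from 127 to 46.1 (−1.46), UQCR11, from 310 to 136 (−1.18), and COX7A1, from 68.5 to 31.6 (−1.12). COX7A1 was above the run 1 control, which stood at 24.4. NDUFS7 was among the least abundant members, which leaves its values less sure here and in the other conditions. The same holds for changes of COX7A1 against run 1 proliferation, where its RNA was 5.16 FPKM. TE fell for 14 subunits and rose for 0 (10.0% and 4.35%), with a median of −0.38 that was −0.16 with the run 1 control. UQCRH Ribo-Seq was 567 FPKM in proliferation, 523 in senescence and 756 in transformed cells. Both changes were within 1.5-fold (−0.12 and 0.41), and run 1 proliferation was at 263.

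In pre-senescence, after 5 days of RASG12V, more subunits passed 1.5-fold in Ribo-Seq than in RNA, as was also so over all genes. RNA rose for 2 subunits and fell for 0 (all genes 5.46% and 6.58%), although 70 of 74 lay above 0 with a median of 0.24. NDUFA8 RNA gained 0.93 (37.9 to 72.2 FPKM) and COX7A1 gained 0.84 (5.16 to 9.23). Ribo-Seq rose for 2 and fell for 13 (15.3% and 22.8%), both below the background share, with a median of −0.34. NDUFA2, a complex I accessory subunit, fell from 68.3 to 27.3 (−1.32), NDUFC2, in its membrane arm, from 68.6 to 27.9 (−1.30), and NDUFA4 from 236 to 98.7 (−1.26). NDUFA4 is listed with complex I by its name, though the protein is now placed in complex IV. UQCRH and COX6A1 rose instead, from 263 to 417 (0.66) and from 76.9 to 129 (0.75), but both were at still higher levels in run 2 proliferation. 

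TE in pre-senescence fell for 35 subunits and rose for 0 (22.5% and 13.6% of all genes), with a median of −0.55. The fall exceeded the difference between controls in 32 (20.0% of all genes). All genes together had a median TE change of −0.15 and a median Ribo-Seq change of −0.13 here. Relative to that shift 20 subunits fell (15.6% of all genes). NDUFC2 went from a TE of 2.04 to 0.49, COX7A2 from 2.36 to 1.00 and ATP5E from 4.04 to 2.68. COX6A1 (0.45), NDUFB11 (0.34) and SDHA (0.33) had the highest values in the opposite direction, all within 1.5-fold. TE was lowest of the 6 columns in pre-senescence for 41 of the 74 subunits. Ribo-Seq and TE values of pre-senescence rest on a single Ribo-Seq library.

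Quiescence left subunit RNA almost level. RNA rose for 1 subunit and fell for 0 (10.5% and 8.86% of all genes), with a median of −0.07. COX7A1 was that gene, from 5.16 to 11.7 FPKM (1.18), no higher than run 2 proliferation at 11.5. SDHB, CYC1 and NDUFC2 were lowest, at −0.47, −0.54 and −0.55. Ribo-Seq fell for 22 subunits and rose for 1 (23.0% and 17.7%), with a median of −0.42 against −0.09 over all genes. The count was 11 after centring on all genes, by which 18.8% of all genes fell, and 18 exceeded their own difference between controls (17.5% of all genes). NDUFB3, a complex I accessory subunit, fell from 180 to 77.1 (−1.22), NDUFC2 from 68.6 to 34.3, and UQCRB, the ubiquinol-binding protein of complex III, from 263 to 134 (−0.98). NDUFS7 was the only subunit that rose, from 12.3 to 19.7 (0.68).

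TE in quiescence fell for 14 subunits and rose for 1 (13.8% and 10.6%), with a median of −0.30. Without centring, the falls stand not far above the background, at 29.7% of subunits in Ribo-Seq (all genes 23.0%) and 18.9% in TE (13.8%). The centred Ribo-Seq count given above lay below the share of all genes, 18.8%. COX7C (−1.11) and COX7A1 (−1.05) had the largest falls among subunits, followed by NDUFA4. The 9 subunits with a TOP-like start had a median of −0.42 and the 50 without one −0.29, while the 76 cytosolic ribosomal proteins had a median of −1.11 with 74 past 1.5-fold. The 9 were not alike. COX7C fell by 1.11, ATP5L by 0.68 and COX4I1 by 0.64, whereas ATP5E (−0.24), UQCRH (−0.16) and COX7A2L (−0.06) stayed within 1.5-fold and NDUFC1 was at 0.48. In senescence the medians of the 9 and the 50 were −0.65 and −0.63.

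The 6 members that are not subunits moved in other proportions. Ribo-Seq fell in 4 of them in quiescence and in 3 in pre-senescence, where TE also fell in 3. The shares over all genes were 23.0%, 22.8% and 22.5%. In senescence NDUFAF1 and NDUFAF2 RNA rose, by 1.06 and 0.63, and NDUFAF3 was level at −0.02. NDUFAF1 Ribo-Seq rose by 0.82, from 32.3 to 57.1 FPKM, the largest senescent Ribo-Seq rise of the 80 members. ATP5SL had the largest Ribo-Seq fall in quiescence, from 44.9 to 16.9 (−1.41), but was at 19.9 in run 2 proliferation.

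Other mitochondrial genes give the setting. In senescent RNA 18.9% of all genes rose and 20.5% fell, and in senescent TE 13.2% rose and 17.5% fell. Of 31 listed assembly factors outside the rule 12 rose and 0 fell in senescent RNA, with a median of 0.41. Among 17 genes of the citric acid cycle and pyruvate dehydrogenase 4 rose and 1 fell, with a median of 0.30, and 0 passed 1.5-fold in TE, where the median was −0.07. The 73 mitochondrial ribosomal proteins had 25 rises and 1 fall with a median of 0.41, and against transformed cells their median was −0.01 where that of the respiratory subunits was 0.62. The 76 cytosolic ribosomal proteins, whose mRNAs are also short and abundant, had a median of 0.12 with 1 rise. Their senescent TE fell in 49 with a median of −0.67, so a TE fall of the size seen in the respiratory subunits was also present there and in the mitochondrial ribosomal proteins, 34 of 73 with a median of −0.55. In transformed cells the cytosolic ribosomal proteins stayed at −0.02.

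**Figure D5:**
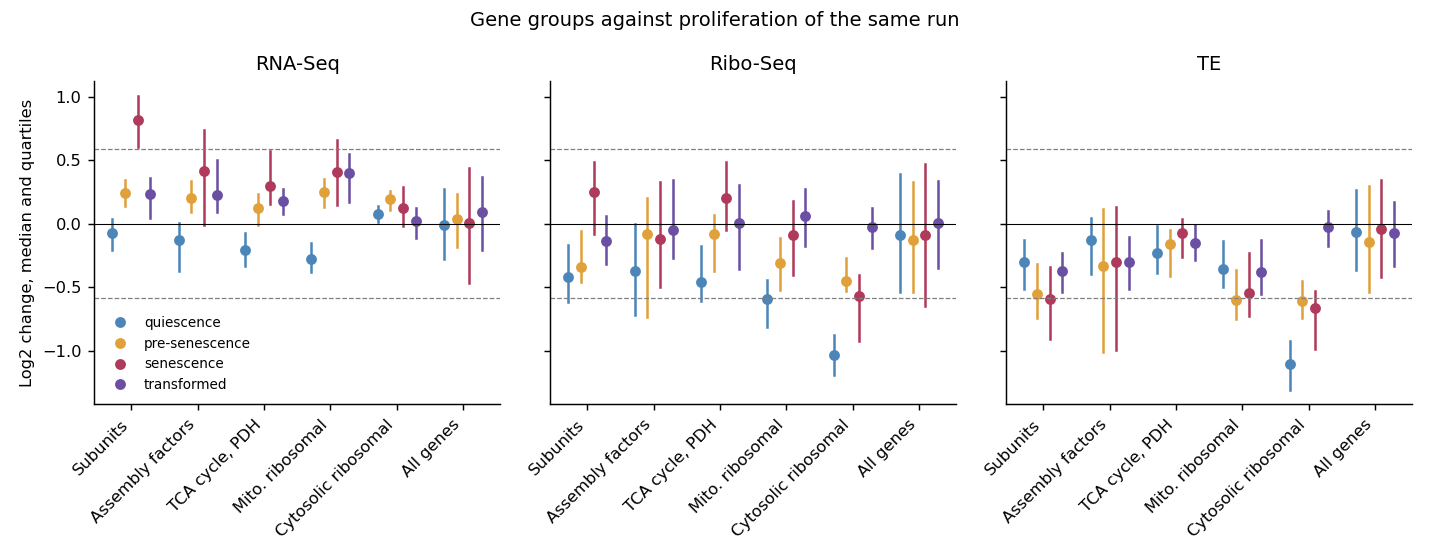
Median (points) and quartiles (lines) of the log2 change in RNA-Seq, Ribo-Seq and TE of 5 gene groups and of all genes, for the 4 conditions against proliferation of the same run, with 1.5-fold dashed. The respiratory and ATP synthase subunits have the highest senescent RNA median, 0.82, and the cytosolic ribosomal proteins the lowest quiescent TE median, −1.11.

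Of 8 carriers, porins and cytochrome c, 3 rose in senescent RNA: SLC25A4, the ADP/ATP carrier of muscle and resting cells, by 1.02, the porin VDAC2 by 0.82 and CYCS, cytochrome c itself, by 0.62. SLC25A5, the carrier of dividing cells, was at −0.26. Among 13 listed regulators of respiratory genes 0 rose and 3 fell, against 18.9% and 20.5% of all genes in senescent RNA. For so short a list, 3 falls are close to that share. They were HIF1A by 0.83, NRF1 by 0.82 and PPRC1, a coactivator of the PGC-1 family, by 0.73. TFAM, which binds mitochondrial DNA, was at −0.49 and ESRRA at 0.44. The coactivators PPARGC1A and PPARGC1B were not analysed here.

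Summed over the 74 subunits, the share of all RNA FPKM was 1.49% in run 1 proliferation, 1.42% in quiescence and 1.66% in pre-senescence, and 1.32%, 2.04% and 1.51% in run 2 proliferation, senescence and transformation. The share of Ribo-Seq FPKM in the same order was 2.01%, 1.74% and 1.86%, then 2.10%, 2.46% and 1.99%. Senescence was thus highest on both scales, and quiescence lowest in Ribo-Seq.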

How the data were processed

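The study's methods and the labels say that RNA and ribosome-protected fragments were sequenced and aligned with Bowtie to 1 Ensembl protein-coding transcript per gene (build hg19), keeping unique matches. The authors deposited FPKM values, with reads counted over the whole transcript for RNA-Seq and over the coding sequence for Ribo-Seq, and values below 1 set to 1. How replicates were combined in pooled columns, and the Bowtie version, are not given in the sources used here. RNA of run 1 was read paired-end and that of run 2 single-end.

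From the 12 columns, log2 ratios were taken with FPKM floored at 1, and TE as log2(Ribo-Seq/RNA-Seq). A gene counted as measured where all values concerned were above 1, which held for all 80 members in every comparison (lowest value 4.71 FPKM). With 1 column per condition no test was run. The study lists the depth of each sample as read totals, but the table gives no counts per gene, so the precision that depth gives was not computed. Named were the 3 largest rises and falls past 1.5-fold per comparison and readout, a fixed set of subunits, and the highest and lowest TE of each complex. Genes outside this rule were named after their values were seen. The members and lists were chosen with earlier results of these data known. Present symbols of older names (ATP5A1 and others) came from RefSeq synonyms. A further check of the labels is not reported here. The calculation was tested on simulated data. Python 3.11.15, numpy and pandas were used. Alternatives tried were another fold, a pseudocount of 1, other filters (none, or at least 10 FPKM), centring, other controls, exchanged labels and the non-subunits included.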

Additional observations from a re-analysis of the deposited data

Results flagged for a closer look

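Members that passed 1.5-fold in opposite directions in senescent and transformed cells, against their shared control, were taken up here. The difference was not tested in any of them, as each state is 1 column. ATP5G3, a c-subunit gene of ATP synthase, rose by 0.77 (log2) in RNA in senescence and fell by 0.60 in transformed cells, a gap of 1.37. With the run 1 control these were 0.97 and −0.40. COX7A1, the muscle-type isoform of complex IV, rose by 0.65 in Ribo-Seq and fell by 1.12, a gap of 1.76. With the run 1 control both changes were above 0, at 2.14 and 0.38. With the disagreeing Ribo-Seq labels exchanged both were below 0, at −0.65 and −1.76. NDUFC2, of the membrane arm of complex I, rose by 0.60 in Ribo-Seq and fell by 0.74, a gap of 1.34. The run 1 control gave 1.42 and 0.076, and the exchanged labels −0.60 and −1.34. Between quiescence and pre-senescence 0 members did so.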

How the results depend on the processing

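No paired analysis was possible because the table holds 1 column per condition and run, and for the same reason no replicate could be left out. Median log2 changes of the subunits are given first. With the control of the other run they were 0.090, 0.43, 0.67 and 0.023 for RNA in quiescence, pre-senescence, senescence and transformation, −0.41 and 0.33 for Ribo-Seq in pre-senescence and senescence, and −0.52, −0.76, −0.37 and −0.16 for TE in the 4 conditions. With the mean of both controls they were 0.34 for senescent Ribo-Seq, −0.47 for senescent TE, and 0.11 and −0.25 for transformed RNA and TE. Centring on all genes gave −0.33, −0.21 and 0.34 for Ribo-Seq in quiescence, pre-senescence and senescence, and −0.41 for TE in pre-senescence. With the 2 disagreeing Ribo-Seq labels exchanged, senescent medians were −0.25 in Ribo-Seq and −1.07 in TE, and transformed ones −0.38 and −0.61. Against the transformed column, an alternative chosen after seeing the data, senescent medians were 0.62 in RNA, 0.38 in Ribo-Seq and −0.19 in TE.

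Counts moved as follows. At 2-fold 19 subunits rose in senescent RNA, and 12, 10 and 2 fell in senescent TE, pre-senescent TE and quiescent Ribo-Seq. Centring left 20 falls in pre-senescent TE and 11 in quiescent Ribo-Seq. Senescent TE fell in 24 subunits with the other control, 56 with exchanged labels and 9 against transformed cells.

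Over the 4 conditions and 3 readouts, 25 of 249 member changes past 1.5-fold took the opposite sign with the other control, among them ATP5L and NDUFB7 RNA in senescence, and COX7A1, NDUFC2 and SDHC Ribo-Seq in transformed cells. Among the 3 largest rises and falls of each comparison these were COX7A1 RNA (−0.31), COX6A1 Ribo-Seq (−0.50) and UQCRH Ribo-Seq (−0.45) in pre-senescence, and COX6A1 (0.48) and ATP5I (0.62) Ribo-Seq in senescence. With exchanged labels, among the same largest changes, NDUFAF1 (−0.82), NDUFAB1 (−0.81), NDUFA8 (−0.77), COX6A1 (0.77), ATP5I (0.70) and SDHD (0.68) did so in senescence by construction, and NDUFA8 (−0.11) in transformed cells. For the sign changes with the other control the cause was not tested. The other 92 values of medians and counts stayed near the main ones, within 0.12, 0.07 and 0.13 for medians of RNA, Ribo-Seq and TE and within 1.5 times for counts. The log2(FPKM + 1) scale and the filters moved no median or count beyond that. What limits these results is the single column per state, the lack of counts per gene and the gap between runs.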
